A study of Mus musculus with 8 samples.

Results

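Divergent promoter pairs are neighbouring genes that start close together and are transcribed away from each other. Pairs were taken from the autosomal protein-coding genes of GENCODE release M21 (mouse genome mm10). A pair had a minus-strand gene on the left and a plus-strand gene on the right, transcription start sites (TSSs) at most 1000 bp apart, and gene bodies that did not overlap. There were 714 such pairs, which held 1428 of 20807 autosomal protein-coding genes (6.86%). The TSS was the annotated 5′ end of the gene. The distance between the TSSs of a pair had a median of 127 bp and ran from 1 to 987 bp, and 585 pairs (81.9%) had TSSs within 300 bp of each other. Each pair was measured over the span between its TSSs plus 1 kb on each side.

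Histone H3 acetylated at lysine 27 (H3K27ac) was profiled by ChIP-seq in 4 breast tumors of Balb/c mice, each tumor from a separate mouse. All mice carried the polyoma middle T oncogene (PyMT), which the MMTV promoter drives mainly in mammary epithelium, and all lacked Rag1, so that they made no T or B cells of their own, and had been injected with CD4+ T cells. The 2 control tumors were PyMT;Rag1KO and the 2 test tumors were K14-TSLPtg;PyMT;Rag1KO, in which the keratin 14 promoter, active in basal keratinocytes, drives the cytokine TSLP. Sample titles use the word tumor in the control group and cyst in the test group, and the numbers 1 and 2 only name an animal's tumor.

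In a divergent pair the DNA between the TSSs serves 2 genes, and such stretches are often called bidirectional promoters. They are known to be rich in CpG dinucleotides and poor in TATA boxes, and many belong to genes of DNA repair, mitochondria, protein folding and chromatin that most cells use. H3K27ac lies on the nucleosomes that flank active promoters and enhancers, while the TSS itself is often free of nucleosomes.

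The sequences between the TSSs show how little DNA some pairs share. The first group holds pairs with acetylation in all 4 tumors, among them textbook bidirectional promoters of DNA repair genes (Apex1, Brca1, Nthl1) and of the mitochondrial ribosome (Mrps12), and further pairs with a mitochondrial ribosome gene (Mrps18b) and a chaperonin subunit (Cct5). Each line runs 5′ to 3′ on the plus strand of mm10, from the base after the TSS of the minus-strand gene to the base before the TSS of the plus-strand gene. Letters come from the C57BL/6J reference, not from the Balb/c mice. Capitals mark a searched motif on either strand, and the motifs are spelled out further on.
Mrps12/Sars2 (chr7:28741821-28741991): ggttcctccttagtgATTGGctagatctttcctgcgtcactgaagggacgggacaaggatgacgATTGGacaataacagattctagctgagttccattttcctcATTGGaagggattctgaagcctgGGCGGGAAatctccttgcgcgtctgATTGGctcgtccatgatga
Osgep/Apex1 (chr14:50924894-50924967): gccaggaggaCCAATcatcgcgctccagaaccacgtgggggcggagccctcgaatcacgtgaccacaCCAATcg
Brca1/Nbr1 (chr11:101551956-101552148): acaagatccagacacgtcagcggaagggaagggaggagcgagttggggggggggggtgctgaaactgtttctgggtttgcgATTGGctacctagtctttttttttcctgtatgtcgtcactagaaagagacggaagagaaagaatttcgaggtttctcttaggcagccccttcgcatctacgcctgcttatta
Tsc2/Nthl1 (chr17:24632631-24632679): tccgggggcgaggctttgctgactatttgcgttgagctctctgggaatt
Mrps18b/Ppp1r10 (chr17:35916390-35916433): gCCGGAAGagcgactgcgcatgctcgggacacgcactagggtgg
Cct5/Fam173b (chr15:31601805-31601851): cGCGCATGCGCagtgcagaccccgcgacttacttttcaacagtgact
Mrps12/Sars2 held 4 CCAAT boxes and an E2F motif in 171 bases, Osgep/Apex1 held 2 CCAAT boxes in 74 bases, and Brca1/Nbr1 held a single CCAAT box in 193 bases. Tsc2/Nthl1, with 49 bases, held no searched motif. An ETS motif lay between the TSSs of Mrps18b/Ppp1r10, and the palindrome-like start of Cct5/Fam173b held the NRF1 core on both strands.

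The second group holds pairs named below for a difference between control and test tumors, and a pair without a peak in any tumor.
Psmb1/Tbp (chr17:15499752-15499887): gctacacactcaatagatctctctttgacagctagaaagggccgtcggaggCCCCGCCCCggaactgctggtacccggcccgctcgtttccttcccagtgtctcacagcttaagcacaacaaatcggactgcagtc
Rfng/Gps1 (chr11:120784208-120784271): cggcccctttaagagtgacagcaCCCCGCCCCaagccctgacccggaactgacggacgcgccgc
Sbds/Tyw1 (chr5:130255531-130255618): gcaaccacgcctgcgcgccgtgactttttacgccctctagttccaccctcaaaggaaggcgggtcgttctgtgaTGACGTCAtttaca
Plgrkt/Cd274 (chr19:29367391-29367454): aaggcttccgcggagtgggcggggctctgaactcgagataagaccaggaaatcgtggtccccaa
Sgce/Peg10 (chr6:4747208-4747305): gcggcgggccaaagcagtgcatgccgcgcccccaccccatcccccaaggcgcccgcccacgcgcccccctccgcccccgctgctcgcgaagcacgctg
Col4a4/Col4a3 (chr1:82586850-82586920): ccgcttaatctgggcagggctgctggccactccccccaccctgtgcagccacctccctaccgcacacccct
Sgce/Peg10, an imprinted pair, had 13 CpG sites in 98 bases and a GC content of 79.6%. Col4a4/Col4a3, which encodes 2 collagen chains of basement membranes, had 2 CpG sites in 71 bases at a GC content of 69.0%.

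The deposited data were lists of peaks, 1 list per tumor, with 59762 to 69861 intervals that covered 64.35 to 73.12 Mb. Control tumors had 69861 and 67850 intervals, with a median width of 565 and 557 bp. Test tumors had 65763 and 59762, with a median width of 620 and 646 bp. Both test tumors thus had fewer and wider peaks over the genome, and the part of this in the differences below was not tested. The lists give the position and width of each peak but no reads, so read depth is unknown and the height of a peak was not measured. Deeper sequencing of a tumor can raise the number and the width of its peaks. Coverage is used here for the percentage of a region's bases that lay inside peaks. Among markers of cell types, 9 or 10 of 11 luminal epithelial genes had a promoter peak in each tumor (Foxa1 in none), and 0 of 5 B cell genes did. Of 6 myoepithelial genes 4, 1, 3 and 0 did in control 1, control 2, test 1 and test 2, with a mean coverage of 19.8%, 2.03%, 16.2% and 0, so the groups overlapped. Test 2 had no promoter peak in the myoepithelial, fibroblast, endothelial, T cell and B cell lists. In bulk tumors, fewer cells of a type and less acetylation per cell cannot be told apart. The TSLP transgene and the Rag1 deletion were not checked, since peak positions do not show them. With 2 tumors against 2, the exact permutation test over tumors cannot give a p below 0.333, so no difference between the groups could pass 0.05.

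Nearly all divergent pairs were acetylated in every tumor. Control tumors had peaks at 673 and 671 of the 714 pairs (94.3% and 94.0%), and test tumors at 675 and 671 (94.5% and 94.0%). The number of tumors with a peak was 4 for 666 pairs (93.3%) and 0 for 35 pairs (4.90%), and only 13 pairs fell between. The groups overlapped, and the mean share differed by 0.140 percentage points (test minus control, two-sided exact permutation p = 1.0).

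Control tumors had a mean coverage of the pair regions of 66.1% and 69.0%, and test tumors of 71.9% and 68.2%. The group means were 67.6% ± 2.05 and 70.1% ± 2.63 (SD, n = 2 each), a difference of 2.49 points (two-sided exact permutation p = 0.667). The second test tumor lay between the 2 control tumors, so the groups overlapped. Over the 679 pairs with any coverage, single tumors of a group differed by a median of 5.06 points (control) and 4.56 points (test) without regard to sign, and the group means, each over 2 tumors and so less variable than single tumors, by 3.89 points.

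Acetylation formed a pair of shoulders around the point midway between the TSSs. At that midpoint 72.0%, 75.6%, 77.5% and 71.7% of the pairs were inside a peak, in the order control 1, control 2, test 1 and test 2, which is the order of every list of 4 values below. At 300 bp to the left, inside or near the minus-strand gene, the shares were 83.3%, 85.2%, 86.6% and 84.3%, and at 300 bp to the right they were 82.8%, 85.01%, 86.7% and 84.9%. Every tumor showed the dip. At 2000 bp the shares had fallen to between 7.003% and 11.9%.

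**Figure D1:**
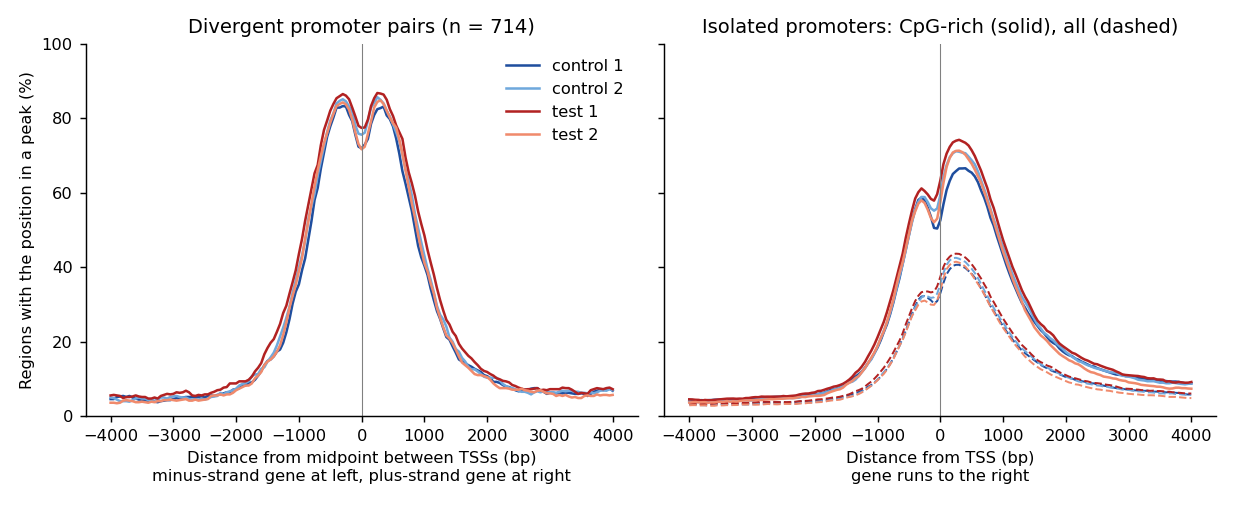
Percentage of regions with each position inside an H3K27ac peak (y axis) against distance in bp (x axis), 1 line per tumor. Left, the 714 divergent pairs around the midpoint between their TSSs, with shoulders of 82.8% to 86.7% at 300 bp on both sides of a dip of 71.7% to 77.5%. Right, isolated promoters turned so that the gene runs to the right, CpG-rich ones as solid lines and all as dashed lines, with coverage mostly on the gene's side.

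Single promoters were asymmetric. Isolated promoters, the TSSs of 16684 genes with no other protein-coding TSS within 5 kb, had their coverage shifted into the gene. They had a dip and shoulders too. At CpG-rich ones, defined below, the shares inside a peak were 58.7%, 58.9%, 61.2% and 58.0% at 300 bp upstream, 50.4%, 55.8%, 59.7% and 53.1% at 50 bp upstream, and 66.6%, 71.1%, 74.3% and 71.4% at 300 bp into the gene. Where an interval lay over an isolated TSS it reached a median of 965.5, 1012, 1059 and 1033 bp into the gene but only 559, 551, 582 and 566 bp upstream. At the TSSs of pairs the same intervals reached 807.5, 862, 907 and 865 bp into the gene and 902, 963.5, 1029 and 958 bp upstream, that is, across the partner. In all 4 tumors the upstream reach was longer at the TSSs of pairs and the downstream reach was shorter.

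A single interval covered both TSSs in 477, 518, 526 and 486 pairs, which were 70.9%, 77.2%, 77.9% and 72.4% of the pairs with a peak (difference 1.14 points, two-sided exact permutation p = 0.667). Separate intervals, 1 for each TSS, were found in 0.889% to 1.49% of the pairs with a peak. Exactly 1 of the TSSs lay in a peak in 10.7% to 13.4%, and in 9.48% to 14.7% a peak lay in the region without covering either TSS. Where an interval lay over the midpoint its median width was 1801, 1936, 2033 and 1898 bp. The first test tumor had the widest intervals and the first control tumor the narrowest.

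The closer the TSSs, the more often they lay in a single interval. Among the 300 pairs with TSSs 1 to 100 bp apart a single interval held both TSSs in 81.1%, 88.1%, 88.5% and 86.1% of the pairs with a peak. For the 86 pairs with TSSs 401 to 1000 bp apart the shares were 52.1%, 54.8%, 60.8% and 50.7%. The order held in each tumor, though a longer stretch must be covered for distant TSSs. The widest-spaced pairs were also those with a peak in all 4 tumors least often, 80.2% against 94.7% to 96.2% in the 3 closer classes. Their coverage was 57.0%, 58.1%, 60.6% and 56.1%, against 67.9%, 70.9%, 74.5% and 71.0% for TSSs within 100 bp.

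**Figure D2:**
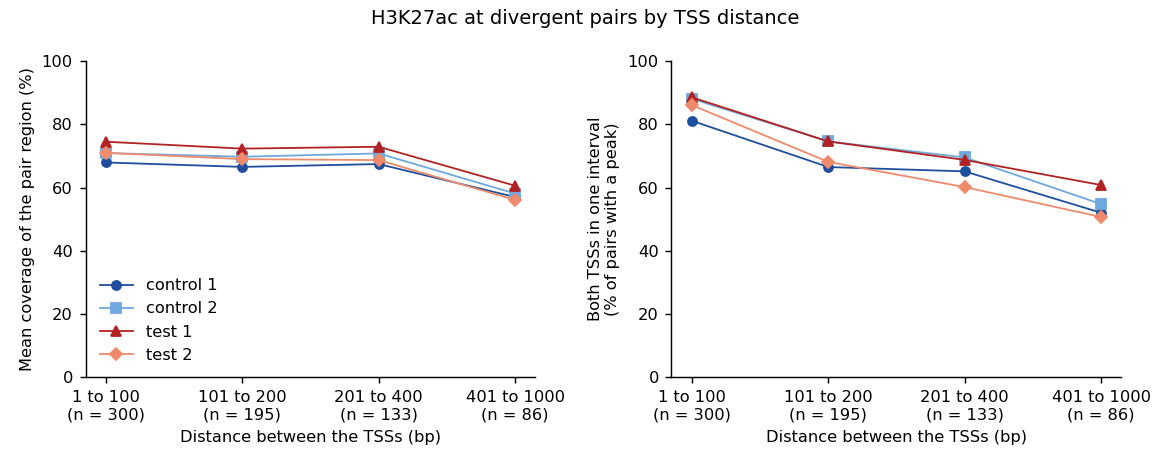
Mean coverage of the pair region in percent (left) and percentage of pairs with a peak in which a single interval held both TSSs (right), in 4 classes of TSS distance in bp on the x axis, 1 line per tumor. Coverage was level up to 400 bp and lower beyond, while the share with both TSSs in a single interval was highest within 100 bp (81.1% to 88.5%) and lowest beyond 400 bp (50.7% to 60.8%).

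The limit of 1000 bp did not mark a visible step. Among the pairs closest to it from inside, Btf3l4/Txndc12 (987 bp) was covered in full in all 4 tumors, Asphd1/Sez6l2 (981 bp) was at 0 in all, and Zfyve26/Rad51b (978 bp) lay between 63.9% and 84.1%. The 4 pairs just outside, Gpr108/Trip10, Sgsm2/Tsr1, Dirc2/Hspbap1 and Ppt2/Prrt1 (1009 to 1023 bp), lay between 56.4% and 100%.

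TSSs of pairs were acetylated more often than other TSSs. Within 1 kb of the TSS a peak was present at 94.2%, 93.9%, 94.4% and 93.8% of the 1428 pair TSSs and at 49.1%, 49.5%, 49.7% and 47.2% of the isolated TSSs. The window of a pair TSS also holds its partner's start, so a peak over the partner alone counts for both. The TSS itself lay inside a peak at 74.1%, 78.99%, 80.04% and 75.3% of the pair TSSs and at 33.0%, 35.5%, 37.5% and 33.9% of the isolated ones. The difference in the share with a peak within 1 kb was 45.2 ± 1.01 percentage points (SD over 4 tumors). It was positive in 4 of 4 tumors (two-sided exact sign-flip permutation over tumors, p = 0.125, the smallest that 4 tumors allow). Mean coverage of the same 2-kb windows was higher by 40.6 ± 1.39 points, and by 13.6 ± 1.05 points among windows with a peak (4 of 4 tumors each, p = 0.125 by the same exact test). Genes share chromosomes and transcription programs, so these 4 values describe the tumors and not independent samples of genes.

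CpG content differed along with this. A TSS was called CpG-rich where the 500 bp on each side had a CpG observed-to-expected ratio of at least 0.6 and a GC content of at least 55%. This held for 72.5% of the pair TSSs and 36.2% of the isolated ones. Among CpG-rich TSSs, a peak was present at 98.2%, 97.7%, 98.4% and 98.3% of 1036 pair TSSs and at 79.4%, 80.1%, 81.1% and 78.7% of 6046 isolated TSSs, a difference of 18.3 ± 1.08 points (4 of 4 tumors, exact p = 0.125). Among the rest, the shares were 82.1% to 83.9% of 392 pair TSSs and 29.3% to 32.2% of isolated TSSs. The CpG-rich classes had a median CpG ratio of 0.811 in pairs and 0.796 in isolated TSSs. In the rest the medians were 0.588 and 0.254, so the gap there is not one at like CpG content.

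Other arrangements were set beside the pairs. The TSSs of 372 divergent pairs that lay 1001 to 5000 bp apart had a peak in 58.7%, 60.3%, 60.9% and 57.5%, which was 34.7 ± 1.4 points less than the pairs (4 of 4 tumors, exact p = 0.125). Only 30.1% of them were CpG-rich, against 72.5% of the pair TSSs, and the part of CpG content in this gap was not tested. Head-to-head genes whose bodies overlapped at their 5′ ends, 439 pairs left out by the rule, had a peak at 91.6%, 92.7%, 92.7% and 91.7% of their TSSs. The difference from the divergent pairs was 1.91 ± 0.618 points (4 of 4 tumors, exact p = 0.125), and in mean coverage it was 0.481 ± 0.570 points with 3 of 4 tumors positive (exact p = 0.375). Among windows with a peak, mean coverage was lower at the divergent pairs, by -1.02 ± 0.747 points, in 4 of 4 tumors (exact p = 0.125).

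**Figure D3:**
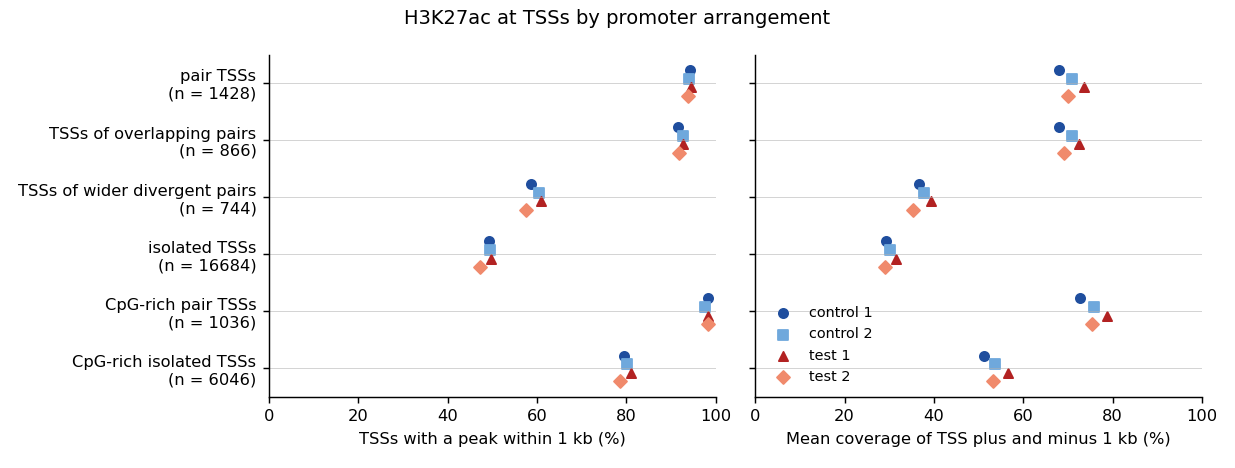
TSSs by promoter arrangement (y axis, with the number of TSSs), 1 marker per tumor. Left, percentage with a peak within 1 kb; right, mean coverage in percent of the TSS plus and minus 1 kb. Pair TSSs (93.8% to 94.4% with a peak) lie beside those of overlapping pairs and above isolated TSSs (47.2% to 49.7%), and CpG-rich pair TSSs lie above CpG-rich isolated ones.

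Sequence motifs also differed in count between pairs and single promoters. For pairs, motifs were searched on both strands in 300 bp centred on the midpoint, and for single promoters in 250 bp before to 50 bp after the TSS. The window of most pairs held both TSSs, while that of a single promoter was set around its own. A motif that sits near a TSS could thus be met more often in pairs, and this was not corrected for. The ETS motif (CCGGAAG) was in 28.0% of the pairs, against 9.18% of isolated, 15.0% of CpG-rich isolated and 11% of all 20807 promoters. Shares of pairs, of CpG-rich isolated promoters and of all promoters were 5.6%, 2.35% and 1.70% for YY1 (AAGATGGCG) and 6.02%, 2.84% and 3.83% for ZNF143/THAP11 (ACTACAA). They were closer for the NRF1 core (GCGCATGCG), with 4.90%, 3.89% and 2.20%, for CRE (TGACGTCA), with 4.62%, 3.72% and 2.43%, and for the CCAAT box (CCAAT), with 43.8%, 35.9% and 38.6%. E2F (GGCGGGAA) was in 4.90% of pairs, more than the 2.97% of all promoters but less than the 5.49% of CpG-rich isolated ones. The TATA letters (TATAAA) were less common in pairs, 4.62% against 12.7%, and close to the 5.29% of CpG-rich isolated promoters. The SP/KLF motif (GGGGCGGGG) was in 20.6% of pairs, between the 14.8% of all promoters and the 30.0% of CpG-rich isolated ones. No searched motif contains the letters of another, though neighbouring matches can share bases.

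Pairs with an ETS motif had a mean coverage of 70.2%, 73.6%, 76.1% and 73.3%, and pairs without one 64.6%, 67.3%, 70.3% and 66.2%. The 35 pairs with the NRF1 core had the highest coverage of any of the 9 motifs, 78.2%, 82.0%, 84.4% and 80.9%, against 65.5%, 68.4%, 71.3% and 67.6% without it. Pairs with an E2F motif had lower coverage, 60.5%, 64.8%, 67.8% and 64.98% against 66.4%, 69.3%, 72.2% and 68.4% without it. For the CCAAT box the pairs with and without it lay within 1 point of each other in every tumor. CpG content was not matched between these sets, and a match of letters is not evidence that the factor was bound.

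Most pairs kept a peak over the midpoint in every tumor. An interval lay there in all 4 tumors in 459 pairs, and the stretch common to all 4 had a median of 1661 bp and ran from 306 to 9537 bp. The widest common intervals were at Cd3eap/Ppp1r13l (9537 bp), an RNA polymerase I subunit and the p53-binding iASPP, at Dok1/Loxl3 (7944 bp), a signalling adaptor and a lysyl oxidase, and at Dbi/3110009E18Rik (7495 bp), where Dbi encodes the acyl-CoA binding protein. Mrps18b/Ppp1r10 (7377 bp), E4f1/Pgp (7345 bp) and the histone pair Hist1h2ae/Hist1h2bg (6698 bp) followed. Coverage of these 6 regions was between 89.9% and 100% in every tumor.

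In many pairs, some with a peak over the midpoint among them, acetylation leaned toward a single gene. The lean was the coverage of the 1 kb inside the plus-strand gene minus that inside the minus-strand gene. It had the same sign in all 4 tumors in 396 of the 666 pairs with a peak in every tumor, toward the plus-strand gene in 202 and toward the minus-strand gene in 194. Its median size was 20.2 points, and 101 pairs had a lean of at least 50 points in the mean.

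The extreme was complete. At Fbxl13/Armc10, 1 kb inside Armc10, a mitochondrial armadillo-repeat protein, was covered by 100%, 100%, 100% and 99.8%, and 1 kb inside Fbxl13, an F-box protein, by 0 in all tumors. Rgl1/Arpc5 leaned by 97.0 points to Arpc5, a subunit of the actin-nucleating Arp2/3 complex. Bop1/Hsf1 leaned by 96.1 points to Hsf1, the heat shock factor, and Cbln3/Khnyn by 96.7 points to Khnyn. Zcchc3/6820408C15Rik and Fhod1/Slc9a5 leaned the other way, by -97.7 points to Zcchc3 and by -96.1 points to Fhod1, a formin. Coverage of the whole region was 44.2%, 45.1%, 43.7% and 44.2% at Rgl1/Arpc5 and varied more at Cbln3/Khnyn, with 52.0%, 65.1%, 61.9% and 47.4%.

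Coverage lay inside a single gene only, in all 4 tumors, in 30 pairs. Ndufa8, a subunit of respiratory complex I, was covered by 83.1%, 100%, 100% and 96.9% while its partner Morn5 was at 0. Klc3, a kinesin light chain, was covered by 68.9%, 76.8%, 83.2% and 83.8% while Ckm, the muscle creatine kinase, was at 0. Zdhhc24 was covered by 46.9%, 52.1%, 71.6% and 51.1% and Actn3, the alpha-actinin of fast muscle fibres, was at 0. The uncovered partners also included Klhl10, needed for sperm formation, Rgs9bp, an anchor of a photoreceptor regulator, Sptbn4, a spectrin of axons, and Ccdc151, a cilium assembly factor, as well as genes that dividing or most cells use, such as Gins1 of DNA replication, Bop1 of ribosome assembly and Helq of DNA repair. These names were chosen from the 30 after their values were seen.

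A histone pair showed the same. Of the 14 pairs of histone genes, 12 in which an H2A or other core histone gene faces an H2B gene or another core histone were covered by at least 84.9% in every tumor, as was Bola1/Hist2h2ab with 86.8% to 93.6%. The exception was Hist1h2ba/Hist1h2aa, the testis variants, with 14.2%, 14%, 15.4% and 14.1%, all of it on the Hist1h2ba side.

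Gene families differed in how often they used divergent pairs. Of 75 histone genes 27 (36%) were in pairs, of 103 DNA repair genes 31 (30.1%), of 78 mitochondrial ribosome genes 18 (23.1%) and of 103 oxidative phosphorylation genes 23 (22.3%), against 6.86% of all genes. Cytosolic ribosomal protein genes (8 of 79), proteasome genes (7 of 49), chaperones (13 of 84), tRNA synthetases (5 of 38) and genes of DNA replication and the cell cycle (8 of 71) lay between 10.1% and 15.5%. Zinc finger factors (20 of 415, 4.82%), genes of antigen presentation and interferon (1 of 37) and of the extracellular matrix and mesenchyme (4 of 149) were below. Of the last 4, Col4a3bp encodes a ceramide transfer protein and matched only by its name.

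Every pair of the families used by most cells had a peak in all 4 tumors, 18 of 18 for the mitochondrial ribosome, 23 of 23 for oxidative phosphorylation, 31 of 31 for DNA repair, 12 of 12 for chaperones, 8 of 8 for the cytosolic ribosome and for replication, 7 of 7 for the proteasome and 5 of 5 for tRNA synthetases. Over all pairs the share was 93.3%. Coverage nevertheless ranged widely. tRNA synthetase pairs had a mean of 89.0%, 89.3%, 96.4% and 92.1%, and Orc3/Rars2 was covered in full. Replication pairs had a mean of 49.95%, 58.7%, 58.3% and 60.1%. Among them Pxmp2/Pole, with the catalytic subunit of DNA polymerase epsilon, had only 17.2%, 20.3%, 28.5% and 33.7%.

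Textbook bidirectional promoters spanned the whole range. Hnrnpa2b1/Cbx3, a classic ubiquitously open promoter, was covered in full in all 4 tumors. Gart/Son, of purine synthesis and splicing, had 100%, 100%, 100% and 95.4%. Atm/Npat, the DNA damage kinase and a histone gene activator, had 88.6%, 87.7%, 89.99% and 77.9%. Brca1/Nbr1, the homologous recombination gene and an autophagy receptor, had 51.5%, 76.3%, 73.9% and 77.9%, and the first control tumor stood below the others. Mcm4/Prkdc, a helicase subunit and the DNA-dependent protein kinase, had the same order with 56.9%, 75.9%, 71.2% and 77.2%. Wrn/Purg, with the Werner syndrome helicase, had 33.2%, 33.3%, 41.2% and 43.2%, and Pdcd10/Serpini1 54.6%, 43.9%, 45.7% and 37.1%.

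The 35 pairs without a peak in any tumor included genes known from other tissues. Col4a4/Col4a3 had its nearest peak 60490, 20426, 60707 and 60606 bp away. Kirrel2/Nphs1, of the kidney slit diaphragm, had its nearest peak 32889 to 33121 bp away. Smyd1/Cd8b1, of heart and skeletal muscle and of CD8 T cells, had it 41170 to 48241 bp away. The 35 also included Bhmt2/Dmgdh of choline metabolism in liver and kidney, the meiotic cohesin genes Smc1b and Stag3, Duox2/Duoxa2, the dual oxidase and its maturation factor, and Il11/Tmem190, with the cytokine interleukin 11. What the authors' cleaning of the peak lists removed is not stated, so a peak at these pairs may have been removed. In 21 pairs the nearest peak was over 10 kb away in all 4 tumors. These names were chosen after their values were seen.

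For some of the 35 the annotated gene start lay away from a start with a peak. In 13 pairs another coding transcript of either gene started within 1 kb of a peak. Ccnt1, which encodes the cyclin of the elongation factor P-TEFb, Trim28, a corepressor, Zfp574, Ostm1 and Dgcr2 were of this kind. The other 22 had no such start. CpG-rich TSSs made up 10 of 70 (14.3%) in pairs without a peak and 1010 of 1332 (75.8%) in pairs with a peak in all 4 tumors. The ETS motif was in 2.86% of the former.

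Between the groups, no pair was covered in the control group alone, meaning by a peak in each control tumor without any in a test tumor, against 0.982% of all 11512 promoter regions with coverage. In the opposite direction there were 2 pairs, Sgce/Peg10 and Pcsk4/Reep6, against 0.556% of all promoter regions. Sgce/Peg10 (chr6:4746207-4748306), the paternally expressed epsilon-sarcoglycan gene and the retrotransposon-derived Peg10, had 0, 0, 12.1% and 29.0%. Pcsk4/Reep6 (chr10:80328498-80330953), a proprotein convertase of germ cells and a membrane-shaping protein, had 0, 0, 14.8% and 6.55%. Both had under 30% coverage where present. Peg3/Usp29, another imprinted pair, had 3.91%, 3.91%, 20.3% and 4.28%, so that only the first test tumor stood out.

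Across the 679 pairs with any coverage, both test tumors were above both control tumors in 171 pairs (25.2%), where 20.8% of all promoter regions were. Both control tumors were above both test tumors in 58 pairs (8.54%), where 9.78% of all promoter regions were. In 450 pairs the groups overlapped, among them 48 that were covered in full in all 4 tumors and could not differ. The median difference of test minus control was 1.39 points over pairs and 1.06 points over all promoter regions. Both shares of the pairs lay within 5 points of those of promoters in general. With flanks of 500 bp in place of 1 kb, both test tumors were higher in 78 pairs (11.5%) and in 14.3% of all promoter regions, so the pairs then lay below the background.

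**Figure D4:**
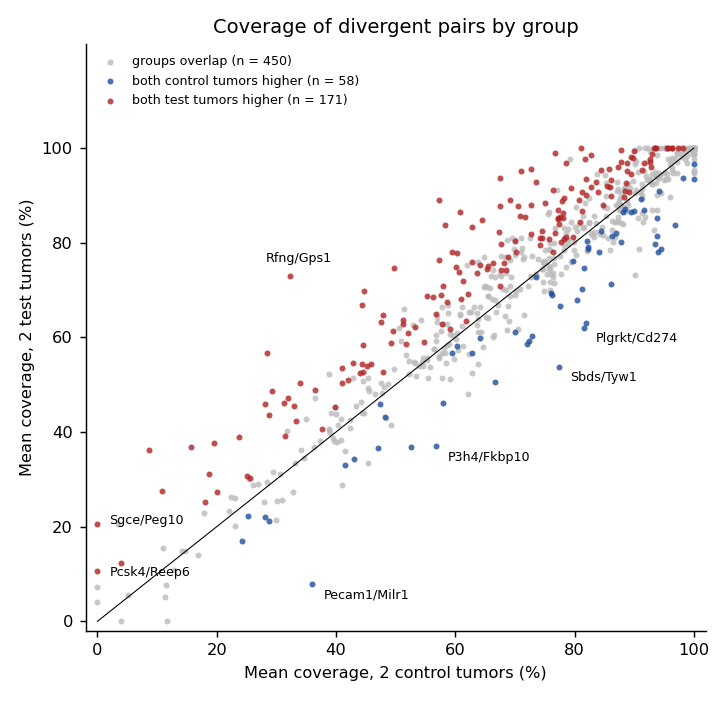
Each point is a pair, with its mean coverage in percent in the 2 control tumors (x axis) and in the 2 test tumors (y axis); the line marks equality. Red points (171 pairs) had both test tumors above both control tumors, blue points (58) the reverse, and most pairs (450, grey) overlapped; Pecam1/Milr1 and Rfng/Gps1 lie farthest from the line on either side.

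Among pairs with both control tumors higher, Pecam1/Milr1 (chr11:106749628-106752226) differed most, with 39.5% and 32.4% in control and 15.8% and 0 in test tumors, a difference of -28.0 points. Pecam1 encodes CD31, an adhesion molecule of endothelium and some leukocytes, and Milr1 encodes an inhibitory receptor of mast cells. The list of 8 endothelial markers holds Pecam1 itself, so its values are in part those of this pair, and no value without Pecam1 is given. Of these 8 markers 4, 4, 2 and 0 had a promoter peak, with a mean coverage of 12.5%, 5.28%, 2.82% and 0. The defining markers Kdr, Tek, Tie1 and Erg were at 0 in every tumor. Of 9 myeloid markers 5, 5, 4 and 4 had a promoter peak, with a mean coverage of 31.4%, 30.8%, 25.01% and 21.5% and with Adgre1, Csf1r and Cx3cr1 at 0 in all. Of 8 T cell markers 2, 2, 1 and 0 had one, with 2.69%, 3.15%, 1.56% and 0 and with Cd3d, Cd3e, Cd3g and Cd4 at 0 in all. The part of these cell types in the result was not tested.

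Sbds/Tyw1 (chr5:130254530-130256619), of ribosome maturation and of tRNA modification, had 76.4% and 78.3% in control and 55.7% and 52.0% in test tumors. Here the tumors of each group lay within 4 points of each other. P3h4/Fkbp10 (chr11:100413836-100416697), which encodes 2 proteins of collagen processing in the endoplasmic reticulum, had 54.96% and 58.5% against 42.6% and 31.3%. Fibroblast markers were also fewer in the test tumors, with a promoter peak at 3, 4, 2 and 0 of 10 markers and a mean coverage of 5.22%, 10.5%, 2.04% and 0, with Col1a2, Fap, Lum and Twist2 at 0 in all. Their part in the result was not tested.

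Plgrkt/Cd274 (chr19:29366390-29368455) pairs a plasminogen receptor with PD-L1, the ligand of the T cell checkpoint receptor PD-1. It had 66.6% and 96.7% in control and 61.0% and 63.0% in test tumors, so the second control tumor stood apart and the other 3 lay within 6 points. Med29/Paf1, of Mediator and of the transcription elongation complex PAF, had 76.7% and 87.0% against 75.04% and 51.2%, and there the second test tumor stood apart. Gorasp1/Ttc21a, of the Golgi and of cilia, had 68.3% and 65.0% against 41.0% and 59.9%.

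Among pairs with both test tumors higher, Rfng/Gps1 (chr11:120783207-120785272) differed most. Rfng encodes radical fringe, a glycosyltransferase that acts on Notch, and Gps1 a subunit of the COP9 signalosome. Coverage was 25.2% and 39.3% in control and 59.8% and 86.0% in test tumors, a difference of 40.7 points, with a wide spread in both groups. Sclt1/D3Ertd751e (chr3:41741514-41743611), where Sclt1 belongs to the distal appendages of centrioles, had 58.8% and 55.6% against 93.7% and 84.5%. Alyref/Anapc11, of mRNA export and the anaphase-promoting complex, had 59.4% and 75.5% against 99.0% and 88.3%.

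Acvr1/Upp2, a BMP type I receptor and a uridine phosphorylase, had 45.3% and 76.3% in control and 86.2% and 86.9% in test tumors, so the first control tumor carried most of the difference. The pair 4930402H24Rik/Atrn, where Atrn encodes attractin, had 16.2% and 40.6% against 61.0% and 52.3%. Hsdl1/Dnaaf1, with an assembly factor of ciliary dynein, had 17.3% and 0 against 36.6% and 35.8%. Psmb1/Tbp, a proteasome subunit and the TATA-binding protein, differed most among the textbook pairs within the rule, 67.6% and 70.8% against 93.3% and 84.9%.

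**Figure D5:**
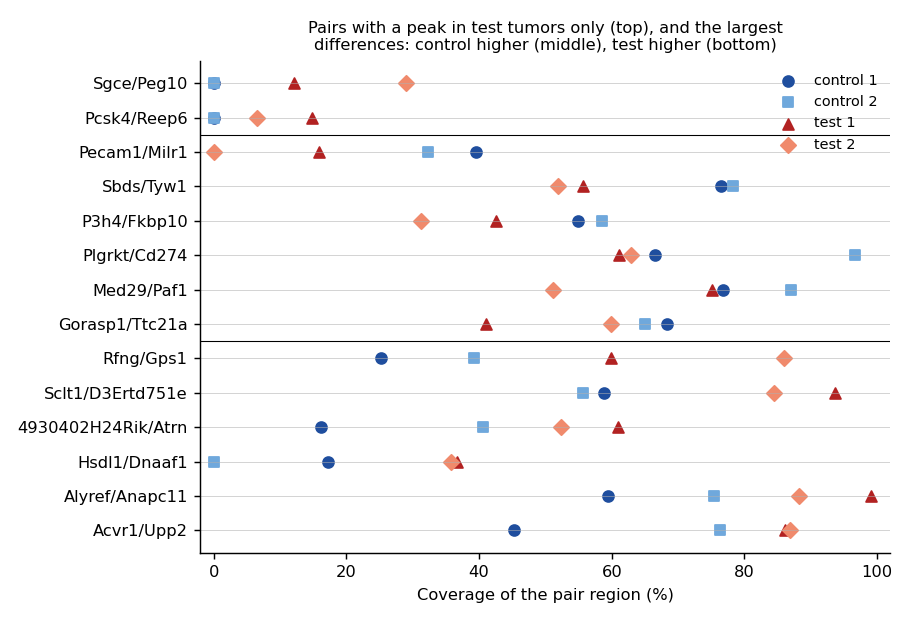
Coverage of the pair region in percent (x axis) in each of the 4 tumors, 1 marker per tumor, for the pairs with the largest group differences. At the top the 2 pairs with a peak in test tumors only, in the middle 6 pairs with both control tumors higher and at the bottom 6 with both test tumors higher; in Plgrkt/Cd274 control 2 and in Acvr1/Upp2 control 1 stands apart.

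In each family with a pair whose groups did not overlap, more pairs were higher in both test tumors than in both control tumors, as among all promoter regions. Both test tumors were higher in 9 of 31 DNA repair pairs and both control tumors in 1, Emc3/Fancd2, with 65.8% and 78.1% against 57.6% and 59.6%. Among the 9 were Xpc/Lsm3 (44.8% and 57.7% against 66.9% and 60.3%), of nucleotide excision repair, and Rad54l/Pomgnt1 (37.3% and 26.5% against 47.1% and 47.1%), of homologous recombination. For oxidative phosphorylation the counts were 7 and 1 of 23, for chaperones 5 and 0 of 12, for the mitochondrial ribosome 4 and 3 of 18, and for zinc finger factors 3 and 2 of the 16 with coverage. They were 3 and 0 of 8 for replication, 2 and 0 each for the cytosolic ribosome, the proteasome and tRNA synthetases, and 1 and 0 of 14 for histones. The background over all promoter regions, 20.8% and 9.78%, gives the scale, and no test was run on these lists.

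The pairs with a peak in 1 to 3 tumors were few. Sgce/Peg10, Pcsk4/Reep6, Pecam1/Milr1 and Hsdl1/Dnaaf1, given above, were among them. Bend6/Dst, with dystonin, a linker of hemidesmosomes to keratin filaments, had 6.89%, 0, 0 and 41.2%. Sncg/Mmrn2, with the endothelial multimerin 2, had 22.6%, 0, 10.2% and 0. Obsl1/Inha, with the inhibin alpha subunit, had a peak in the second control tumor alone (23.2%), and Nrg4/Tmem266, with the epidermal growth factor family ligand neuregulin 4, in the first test tumor alone (14.3%). In Bend6/Dst, Sncg/Mmrn2, Obsl1/Inha and Nrg4/Tmem266 the 2 tumors of at least 1 group differed from each other in having a peak.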

How the data were processed

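H3K27ac ChIP-seq was carried out on 2 control and 2 test breast tumors with matched input libraries, which were not analysed here. The authors aligned reads to mm10 with BWA and called peaks in each tumor separately with MACS2 against its input, without pooling of tumors. In the deposited lists are interval positions in base pairs after cleaning and merging by the authors, with no score; what was cleaned is not stated. Their number and width can vary with sequencing depth, which is unknown.

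Groups came from the genotype per the labels. Pairs were built from GENCODE M21, and a pair had a peak where at least 1 bp overlapped. Coverage was the percentage of bases in peaks. Groups were compared by exact permutation over tumors, and pairs with other promoters by exact sign-flip permutation over 4 tumors, both two-sided. Each group has 2 tumors. A p-value is the share of relabelled or sign-flipped arrangements of these tumors with a mean difference at least as large in size. It speaks of these tumors only. Named pairs were those with a peak in both tumors of a single group, the 6 largest differences in each direction among pairs without overlap between groups, the 6 widest common intervals, the 6 strongest leans, and textbook and family pairs. The members and lists were chosen with earlier results of these data known. Motif letters and sequences came from the RefSeq GRCm38.p6 genome, the same assembly as mm10. Alternatives were equal numbers of peaks per tumor (59762), peaks at least 1 kb wide, peaks within 1 kb joined, TSSs within 500 bp, flanks of 500 bp, an overlap of 200 bp, isolation by 10 kb, CpG-rich isolated promoters, and leaving out each tumor. Scripts used Python 3.11.15, numpy 2.4.6, pandas 2.3.3, pysam 0.24.0 and matplotlib 3.10.9 and were tested on simulated data. A few pairs are not reported here.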

Additional observations from a re-analysis of the deposited data

How the results depend on the processing

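The comparison of pairs with isolated promoters kept its direction under all 11 alternatives for the share with a peak (18.3 to 46.2 points, lowest against CpG-rich isolated promoters) and all 10 for mean coverage (22.0 to 41.9 points). The difference in mean coverage between the groups stayed positive under all 9, from 0.628 to 4.34 points. Other results were less stable. The difference in the share of pairs with a peak ran from -0.140 to 0.420 points when a tumor was left out, with the negative value without test 1, and it rose from 0.140 to 2.87 points with peaks at least 1 kb wide. The difference in the share with both TSSs in a single interval ran from -2.02 to 4.30 points, negative without control 1 (-2.02) and without test 1 (-1.61). Leaving out a tumor raised the pairs with control higher from 58 to between 87 and 199 and those with test higher from 171 to between 209 and 331, since fewer tumors overlap by construction. Control-only pairs then numbered 0 to 3 and test-only pairs 2 to 3. With flanks of 500 bp, 78 pairs (11.5%) were higher in both test tumors, against 14.3% of all promoter regions. With peaks at least 1 kb wide, 2 pairs were control-only and 10 test-only, and with an overlap of 200 bp 1 pair was test-only. The counts without a tumor and the control-only and test-only counts of this section have no share over all promoter regions at the same setting. They can therefore not be read against a background. The causes were not tested. No paired analysis was possible because the replicate numbers only name tumors of separate mice. Read depth is unknown, so a pair without a peak may still carry acetylation below the caller's threshold.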

Other observations

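Several bidirectional promoters known from textbooks lie outside the rule because their annotated gene bodies overlap. Psmb9/Tap1, which pairs an immunoproteasome subunit with the peptide transporter of antigen presentation, had 81.2%, 91.8%, 85.5% and 93.7% in control 1, control 2, test 1 and test 2. Hspd1/Hspe1, the mitochondrial chaperonins, had 90.3%, 100%, 100% and 89.96%, and Tk1/Afmid, with thymidine kinase, was covered in full in all 4 tumors.

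Col4a1/Col4a2, the main collagen chains of basement membranes, start 21 bp apart and had 100%, 100%, 86.1% and 40.7%, with both test tumors lower (difference -36.6 points). Its relative Col4a4/Col4a3 had no peak in any tumor. Fibroblast and endothelial markers were lower in the test tumors too, as given above, and their part in this difference was not tested.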
